A study of Mus musculus with 2 samples.

Results

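The cells described here are resting basal keratinocytes low in mucosal keratins, 2868 of the 15470 cells kept from mouse buccal mucosa, the lining of the cheek. They made up 20.2% of the kept cells of library 1 (1392 of 6907; exact 95% interval 19.2 to 21.1%) and 17.2% of those of library 2 (1476 of 8563; 16.4 to 18.1%). They were compared with the other 12602 kept cells, and with 3 related classes that each miss a single part of the choice. Those classes were 489 intermediate cells, 2009 cycling cells low in mucosal keratins and 105 Dcn-high basal cells.

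All cells came from C57BL/6 females aged 12 weeks. Tissue of 10 animals was pooled into 1 suspension, basal cells were sorted on a high surface level of CD104 (integrin β4, gene Itgb4), and the suspension was divided over 2 technical 10x Chromium libraries. There is therefore 1 independent sample, no genotype or treatment contrast and no test. The difference between library 1 and library 2 is technical, and variation between mice was not measured.

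A cell was a member when it met 8 criteria on unique molecular identifiers (UMIs, 1 per captured transcript) scaled to 10000 per cell. Krt4 plus Krt13, the keratin pair of the differentiating mucosal layers, had to be under 80, and Krt14, a keratin of the basal layer, at least 40. The sum of Mcm3, Ung, Hells, Dtl, Ccne2, Cdt1 and Rrm2 (S phase) and the sum of Top2a, Cenpf, Ube2c, Ccnb1, Nusap1 and Prc1 (G2/M) each had to be under 6. Hist1h1c, Hist1h2bc and Hist1h4i together had to be under 5, Dcn under 15, Krt7 plus Krt18 (simple-epithelium keratins) under 5, and Isg15, Ifit1, Ifit3, Oasl2, Rtp4 and Ifi44 (interferon-induced) under 5. Intermediate cells met every criterion except the Krt4 plus Krt13 limit, and Dcn-high basal cells every one except the Dcn limit. Cycling cells exceeded the S phase limit, the G2/M limit or both, and met every other criterion. Because the members were picked on measured expression in these same cells, every difference below describes the chosen class and is not evidence for it.

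A class cut from per-cell scores is a range of cells and not a cell type. In library 1, 391 members (28.1%) lay within 25% of at least 1 limit, as did 432 (29.3%) in library 2. Conversely, 1526 and 1880 of the other cells of libraries 1 and 2 missed exactly 1 criterion. The 154 members nearest the Krt4 plus Krt13 limit in library 1 held 60.1 to 79.9 UMIs per 10000, and the 67 cells just outside it held 80 to 99.4. For Krt14 the 115 members nearest the limit held 40.04 to 49.8, and the 57 cells just outside held 30.6 to 39.8. In the whole class, the median of Krt14 was 93.0 UMIs per 10000 in library 1 and 98.5 in library 2, and that of Krt4 plus Krt13 was 36.7 and 38.0. The plot of all kept cells by these keratins shows the members as a corner of a continuous cloud with no gap at either limit.

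**Figure D1:**
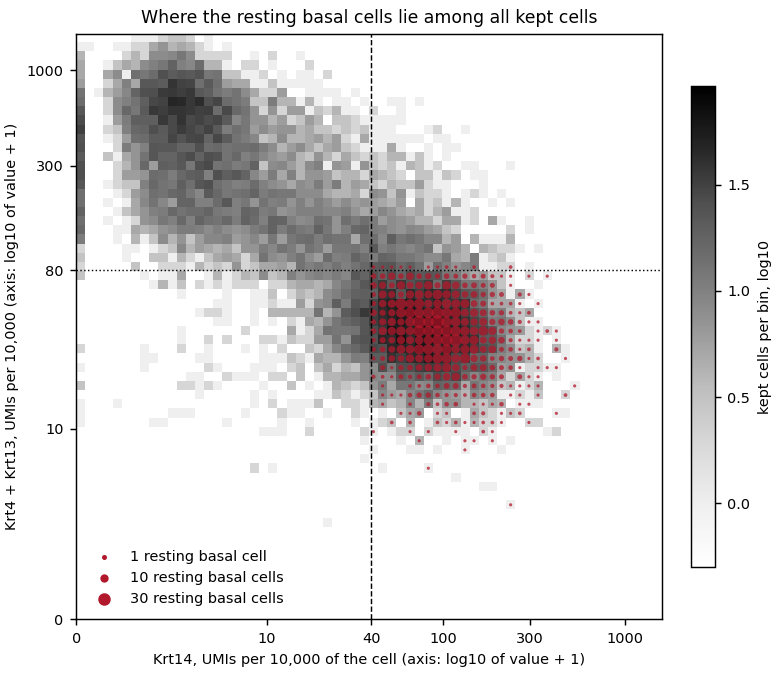
Krt14 (x axis) against Krt4 plus Krt13 (y axis) per cell of both libraries, in UMIs per 10000 on axes of log10 of the value plus 1, with red dots sized by the number of resting basal members and grey shading for the number of all kept cells in each bin; the dashed line marks the Krt14 minimum of 40 and the dotted line the Krt4 plus Krt13 limit of 80. Members (median Krt14 93.0 in library 1 and 98.5 in library 2) occupy the high-Krt14, low-Krt4 plus Krt13 corner, and the shading runs on across both lines.

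Members were shallower than the rest, and this moves with every result below. The median member had 6118 UMIs in library 1 and 4899.5 in library 2, against 8557 and 7399 in all other kept cells. Median genes per cell were 2129 and 1851.5 in members and 2597 and 2382 in the others, and mitochondrial UMIs were 4.42 and 4.93% of the total against 3.80 and 4.27%. The part of depth in the results was not tested beyond thinning all cells to 3000 UMIs, a depth that every kept cell reached. Where thinning served as an alternative setting for the calls, the classes were chosen again on the thinned counts, so membership changed together with depth. The libraries shared 104 cell barcodes, of which 25 and 18 were members in libraries 1 and 2. Doublets were not removed.

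The basal layer of a stratified epithelium anchors to the basement membrane through hemidesmosomes, expresses Krt5 and Krt14, and holds the dividing progenitors. In the usual account of buccal mucosa, cells that leave this layer stop dividing, lose adhesion to the matrix and switch to Krt4 and Krt13. In these data the switch and the cycle were not cleanly separated. After thinning, Mki67 had a UMI in 10.4 and 10.8% of cells with Krt14 under 40 and Krt4 plus Krt13 of 80 or more. Cdk1 had a UMI in 15.5 and 14.8% of them. The parts of doublets and free RNA in these shares were not tested. D-type cyclins drive exit from G1, and CDK inhibitors such as p21, p27 and the INK4 proteins hold it back, both in resting progenitors and in cells that differentiate.

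Of 15 marker and leading genes of the class, 9 had a promoter in the RefSeq table (GRCm38.p6, 250 bases before to 50 after the annotated start), giving 11 windows. Promoter windows of Gpnmb and Dlk2, the markers with the largest differences, and of the basal keratin gene Krt5 are shown so that the class can be read at sequence level. Dlk2 had 2 windows, of which the first is printed; the other, at chr17:46297678-46297977, held no match either. Each is written 5′ to 3′ on the gene's strand, in lower case, with a match to a searched motif in capitals.
Gpnmb, chr6:49036268-49036567, plus strand: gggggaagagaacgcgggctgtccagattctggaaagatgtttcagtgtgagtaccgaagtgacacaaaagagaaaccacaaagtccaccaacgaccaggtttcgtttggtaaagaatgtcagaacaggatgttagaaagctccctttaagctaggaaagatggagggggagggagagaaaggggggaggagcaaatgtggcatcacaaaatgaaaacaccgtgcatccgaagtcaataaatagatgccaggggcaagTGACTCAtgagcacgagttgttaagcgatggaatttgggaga
Dlk2, chr17:46297233-46297532, plus strand: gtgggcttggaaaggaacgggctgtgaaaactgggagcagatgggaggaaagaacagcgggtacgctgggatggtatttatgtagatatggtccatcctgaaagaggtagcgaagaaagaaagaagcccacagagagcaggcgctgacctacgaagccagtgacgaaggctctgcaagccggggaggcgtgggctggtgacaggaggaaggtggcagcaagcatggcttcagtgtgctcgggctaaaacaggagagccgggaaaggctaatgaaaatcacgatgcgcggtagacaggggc
Krt5, chr15:101712856-101713155, minus strand: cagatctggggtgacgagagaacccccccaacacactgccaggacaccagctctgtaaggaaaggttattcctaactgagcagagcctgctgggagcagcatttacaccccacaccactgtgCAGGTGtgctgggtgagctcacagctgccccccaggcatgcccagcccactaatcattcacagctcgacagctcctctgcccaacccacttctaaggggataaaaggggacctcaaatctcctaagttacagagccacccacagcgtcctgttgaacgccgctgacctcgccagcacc

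Motifs were searched on both strands. TGANTCA includes the AP-1 sites TGACTCA and TGAGTCA but allows any base at N, so it is wider than the AP-1 site. It stood in 2 of the 11 windows, as TGACTCA in Gpnmb and TGAATCA in Efemp1, and in 7.81% of all 32851 windows of this length. CAGGTG, an E-box of the type bound by Snail factors, stood in 4 of 11 windows, Krt5 among them, and in 20.2% of all. TATAAA was found in 2 of 11 windows and 13.6% of all, and CACGTG in 0 of 11 and 7.15% of all. No matches overlapped in these windows, and no motif was shared by all leading genes. In the GENCODE M21 annotation of GRCm38, Dlk2 spans chr17:46297421-46303271 on the plus strand, Gpnmb chr6:49036546-49070929 on the plus strand, Ccnd2 chr6:127125162-127152193 on the minus strand, Krt5 chr15:101707070-101712898 on the minus strand and Krt15 chr11:100131758-100135928 on the minus strand, all protein-coding.

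Set against all other kept cells, resting basal cells held more of the basal surface programme and less of both the mitotic and the cornified programme. Levels are CPM, that is, UMIs of a gene per 1000000 UMIs summed over a class in each library. A gene was called higher or lower when it differed at least 1.5-fold the same way in both libraries and averaged at least 20 CPM, a rule of size and not a test. Of 5194 genes compared, 471 were higher (9.07%) and 411 lower (7.91%), with a median log2 ratio of 0.08 over all genes. When libraries were instead scaled by the median of ratios, the split was 320 higher and 541 lower and the median was -0.07. The 95% intervals given below are of the ratio of UMIs summed over both libraries and cover counting error only.

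The 5 markers outside the choice were all higher in the members. Krt5, the partner of Krt14 in the basal filament, stood at 3732 and 3552 CPM in resting basal cells of libraries 1 and 2, against 1754 and 1581 CPM in all other cells (log2 ratio 1.13, interval 1.12 to 1.15). Krt15, a basal keratin often used to mark slow-cycling cells, was at 2092 and 2409 CPM in members against 1102 and 1261 CPM in other cells (log2 0.93). Both were higher in the members in each library, and the larger differences lay in the 3 markers that are not keratins.

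Dlk2, an EGF-repeat membrane protein related to the non-canonical Notch ligand Dlk1, stood at 96.2 and 96.6 CPM in resting basal cells and at 13.6 and 12.8 CPM in the others (log2 2.87, interval 2.77 to 2.97). Gpnmb, a transmembrane glycoprotein of lysosomes and melanosomes, stood at 188 and 184 CPM in members against 35.6 and 32.6 CPM in other cells (log2 2.45, interval 2.38 to 2.52). Ccnd2 encodes cyclin D2, a partner of CDK4 and CDK6 in G1, and stood at 932 and 907 CPM in members against 205 and 198 CPM in other cells (log2 2.19, interval 2.16 to 2.22). The 2 libraries differed from each other by far less than the classes did.

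Counted per cell at 3000 UMIs, Dlk2 had a UMI in 23.3% of members in library 1 (exact interval 21.1 to 25.6%) and 23.0% in library 2 (20.9 to 25.3%), against 5.11 and 4.66% of all other cells. Free RNA sets a floor for such shares, and immune cells (median 8025 and 7782 UMIs before thinning) were used as the reference for it. Doublets were not removed from them, and Krt14 had a UMI in 84 and 69.2% of them. The parts of free RNA and of doublets in their values were not tested. In these cells Dlk2 had no UMI in the 25 of library 1 (exact upper bound 13.7%) and a UMI in 10.3% of the 39 of library 2 (2.87 to 24.2%). At this depth the share in library 2 therefore overlaps the interval of that reference. Gpnmb had a UMI in 34.8 and 36.1% of members, 10.4 and 10.7% of other cells and 0 and 10.3% of immune cells, and Ccnd2 in 83.5 and 82.7% of members, 39.8 and 38.3% of other cells and 56.0 and 30.8% of immune cells. The immune cells' own expression of these genes was not told apart. Without thinning the members' shares were 40.2 and 34.4% for Dlk2 and 52.6 and 47.8% for Gpnmb, so most members lacked a Dlk2 UMI whichever way they were counted.

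Krt4 and Krt13 were not absent from the members. Krt4 stood at 1200.1 and 1307 CPM in resting basal cells, and Krt13 at 2709 and 2720.1 CPM in members. Immune cells, which should lack both, held Krt4 at 4313 and 3784 CPM and Krt13 at 4884 and 3625 CPM. The choice itself holds the sum of the pair in members under 80 UMIs per 10000, so nothing is read from the members lying below the immune cells.

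The 12 genes with the largest excess over other cells, outside the choice, were Dlk2, Gpnmb, Ccnd2, Pappa, Sparc, Gdpd2, Defb1, Hpgd, Cd59a, Efemp1, Wnt10a and Cdh13. Several are secreted. Pappa, a metalloproteinase that cleaves IGF-binding proteins, stood at 194 and 190 CPM in resting basal cells against 45.9 and 40.6 CPM in the others (log2 2.15). Sparc, a collagen-binding matricellular protein, stood at 211 and 220 CPM in members against 51.1 and 49.2 CPM in other cells (log2 2.10), and Efemp1, the extracellular glycoprotein fibulin-3, at 172 and 188 CPM in members against 46.3 and 48.3 CPM in other cells (log2 1.93). Defb1, an antimicrobial β-defensin, stood at 199 and 205 CPM in members against 50.7 and 51.5 CPM in other cells. Hpgd, the dehydrogenase that inactivates prostaglandins, was at 633 and 655 CPM in members against 168 and 166 CPM in other cells (log2 1.95), and Gdpd2, a glycerophosphodiester phosphodiesterase, at 94.2 and 103 CPM in members against 23.1 and 23.2 CPM in other cells (log2 2.09). Cdh13 (T-cadherin), Wnt10a and the complement regulator Cd59a were 1.89 to 1.99 higher on the log2 scale; how reads were divided between Cd59a and its close copy is not given.

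**Figure D2:**
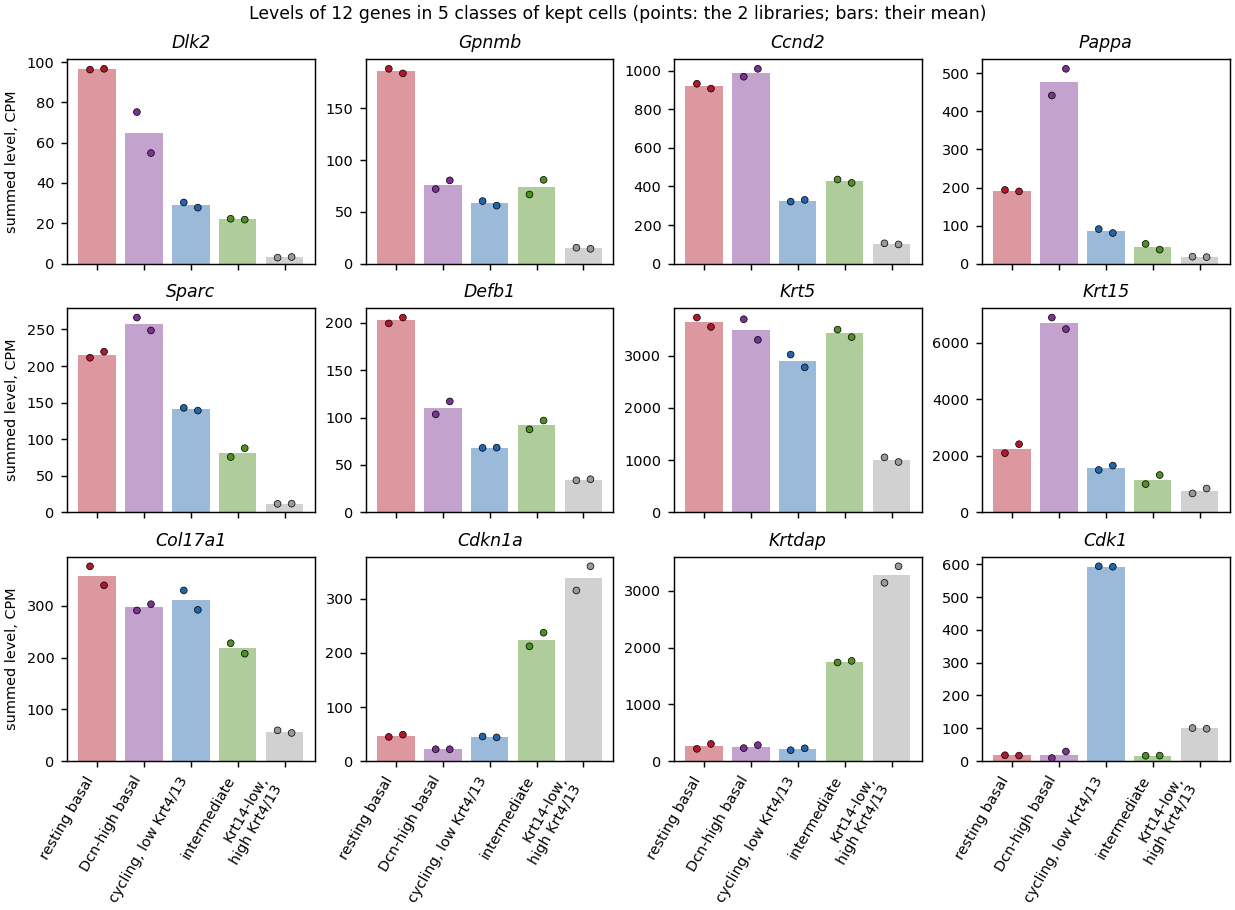
Levels of 12 genes in CPM in 5 classes (resting basal first, then Dcn-high, cycling, intermediate, and cells with Krt14 under 40 and Krt4 plus Krt13 of 80 or more); points are the 2 technical libraries and bars their mean. Gpnmb (188 and 184 CPM) and Defb1 (199 and 205 CPM) are highest in resting basal cells, Pappa, Sparc and Krt15 are highest in Dcn-high cells, and Cdk1 stands out in cycling cells.

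Genes of adhesion to the basement membrane were higher together. Of 22 genes listed for hemidesmosomes and matrix adhesion, 11 were abundant enough to compare, 9 were higher and 0 lower (median log2 1.36, against 0.08 over all genes). Itgb4, the sorted antigen's own gene, stood at 138 and 118 CPM in resting basal cells and 55.1 and 49.3 CPM in the others (log2 1.29). Its partner Itga6 stood at 361 and 343 CPM in members against 136 and 126 CPM in other cells (log2 1.43), and Col17a1, the transmembrane collagen of the hemidesmosome, at 377 and 340 CPM in members against 145 and 126 CPM in other cells (log2 1.40). The laminin-332 chain gene Lamb3 was at 70.5 and 70.4 CPM in members against 21.6 and 19.7 CPM in other cells (log2 1.77). Dst, Itga3, Bcam, Itgb1 and the plectin gene Plec made up the rest of the 9, and Cd151 and Sdc1 did not reach the size rule.

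Among transcription factors of basal and oral epithelium, 3 of 12 compared genes were higher. Trp63, the p63 factor that maintains stratified epithelia, stood at 495 and 505 CPM in resting basal cells against 252 and 258 CPM in the others (log2 0.97). Id3 and Tfap2b were the other higher genes, while Sox2, Pitx1, Pax9 and Klf5, factors of oral or epithelial identity, did not reach the size rule. Of 13 compared factors of differentiation, 7 were lower and 0 higher (median log2 -0.72). Grhl1, a grainyhead factor of the epidermal barrier, stood at 6.22 and 6.27 CPM in members against 37.1 and 37.9 CPM in other cells. Zfp750, Grhl3, Ovol1, Klf4 and Maf were among the other lower genes.

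Signalling genes that differed were mostly secreted ligands and modulators. In the Wnt list, 5 of 11 compared genes were higher and 0 lower (Wnt10a, Dkk3, Wnt6, Sfrp1 and Tcf7l2, the last of which lost its call under 6 of 13 alternative settings). Wnt10a and Wnt6 are ligands, and Wnt6 stood at 75.5 and 77.3 CPM in resting basal cells against 22.3 and 22.8 CPM in the others. Dkk3 and Sfrp1 are secreted modulators of the pathway, and Dkk3 stood at 40.1 and 40.8 CPM in members against 11.1 and 10.8 CPM in other cells. In the TGF-β and BMP list, 6 of 12 were higher and 0 lower, among them the TGF-β-induced matrix gene Tgfbi at 153 and 144 CPM in members against 42.2 and 40.03 CPM in other cells and the receptor gene Tgfbr2 at 45.3 and 43.1 CPM in members against 16.0 and 14.96 CPM in other cells. In the growth factor list, 11 of 15 were higher (median log2 0.81) and Erbb2 was lower. That list includes the IGF-binding proteins, of which Igfbp2, Igfbp3, Igfbp4, Igfbp5, Igfbp6 and Igfbp7 were all higher, although the calls of Igfbp2 and Igfbp5 were lost under 2 and 5 of 13 alternative settings. Igfbp7 stood at 316 and 342 CPM in members against 99.5 and 93.3 CPM in other cells and Igfbp3 at 122 and 151 CPM in members against 41.9 and 43.8 CPM in other cells. Of 5 compared Notch genes, Dlk2 was higher, and the targets Nrarp and Hes1 were lower, with Nrarp at 19.0 and 23.3 CPM in members against 89.1 and 96.1 CPM in other cells.

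The G2/M genes outside the choice were all lower, the choice having used genes of the same programme, while most S phase genes outside it did not reach the size rule. All 17 compared G2/M genes were lower (median log2 -3.32), among them Cdk1, the mitotic kinase, at 17.9 and 16.8 CPM in resting basal cells against 199 and 190 CPM in the others. Mki67 had a UMI in 2.30 and 2.64% of members at 3000 UMIs, against 20.2 and 19.3% of all other cells and 8 and 15.4% of immune cells, which can themselves divide. Of 11 S phase genes, 3 were lower (Rrm1, Tyms and Gmnn), 7 did not reach the size rule and Gins2 was higher, a call lost under 2 of 13 alternative settings (median log2 -0.19). The G1 list was mixed, with 4 of 15 higher and 3 lower. Cdkn1a, which encodes the CDK inhibitor p21, stood at 44.7 and 48.9 CPM in members against 236 and 273 CPM in other cells (log2 -2.44, interval -2.56 to -2.35). Cdkn1b, which encodes p27 and is linked to quiescence in many tissues, stood at 51.2 and 47.5 CPM in members against 51.0 and 49.0 CPM in other cells (log2 -0.02). Ccnd1 was at 137 and 133 CPM in members against 84.7 and 83.6 CPM in other cells, a call lost under 3 of 13 alternative settings.

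Differentiation genes were lower. Of 19 compared genes of the cornified envelope and late differentiation, 16 were lower and 1 higher (median log2 -1.70). Krtdap, a secreted keratinocyte differentiation peptide, stood at 216 and 302 CPM in resting basal cells against 2220.3 and 2485 CPM in the others (log2 -3.20). The exception was Ecm1, a secreted matrix glycoprotein, at 97.1 and 112 CPM in members against 47.4 and 51.0 CPM in other cells. Of 9 desmosome genes 6 were lower, with the cadherin gene Dsg1a at 17.1 and 18.9 CPM in members against 98.1 and 99.6 CPM in other cells, and 6 of 9 genes of cholesterol synthesis and uptake were lower, with Fdps at 26.5 and 31.0 CPM in members against 147 and 165 CPM in other cells.

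The 12 genes with the largest deficit were Serpinb3a, Cd74, Pbk, Serpinb12, Ccna2, Gsta1, Ada, Birc5, Cdca3, 2810417H13Rik, Cdk1 and Krt23. Of these, 6 are genes of S phase or mitosis (Pbk, Ccna2, Birc5, Cdca3, 2810417H13Rik and Cdk1). Serpinb12, an intracellular serpin, stood at 21.0 and 26.1 CPM in resting basal cells against 322 and 394 CPM in the others, and Ada, adenosine deaminase, at 30.6 and 52.3 CPM in members against 428 and 586 CPM in other cells. Serpinb3a and Gsta1 have close copies in the mouse genome, between which the division of reads is not given. Cd74, an MHC class II chaperone, stood at 5.33 and 11.3 CPM in members against 84.4 and 199 CPM in other cells, and at 22405 and 35427 CPM in the 64 immune cells among the others. Without immune cells and cells over the Krt7 plus Krt18 limit its ratio turned to 0.23 on the log2 scale, so this difference rests on those cells.

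Many broad lists were flat. Of 81 compared cytosolic ribosomal protein genes, 0 reached the size rule (median log2 0.23), and the same held for the 7 immediate early genes and the 9 genes of MHC class I. Of 74 nuclear respiratory chain genes, 1 did (median log2 -0.12). Of 13 lysosome genes, 3 were higher (Gpnmb, the protease gene Ctsl and Cd63) and most did not reach the size rule. Of 11 compared candidate stem cell markers, 6 were higher and 0 lower, namely Itga6, Thy1, Col17a1, Slc1a3, Krt15 and Igfbp5. Thy1, a cell surface glycoprotein, stood at 37.6 and 36.7 CPM in resting basal cells against 14.6 and 13.5 CPM in the others. The call of Igfbp5 was lost under 5 of 13 alternative settings. Against cycling cells low in mucosal keratins, 0 of these 11 markers differed by the size rule. Against Dcn-high basal cells 1 was higher (Ly6a) and 2 were lower (Krt15 and Igfbp5), so these markers do not set the members apart from related basal classes.

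**Figure D3:**
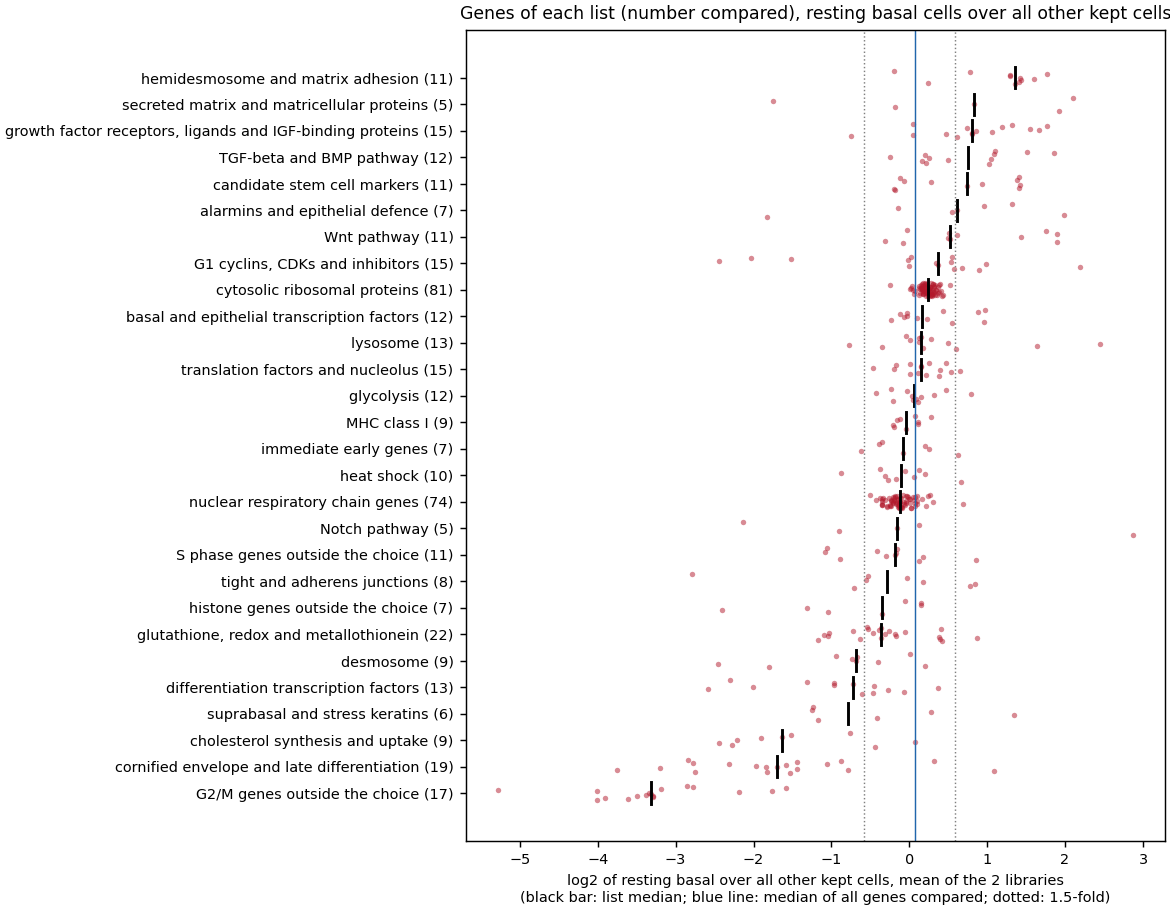
Log2 ratio of resting basal cells over all other kept cells for the compared genes of each list, with 1 point per gene, a black bar at the list's median, a blue line at the median of all genes compared and dotted lines at 1.5-fold. Hemidesmosome and matrix adhesion genes lie to the right (median 1.36), G2/M genes (median -3.32) and cornified genes (median -1.70) to the left, and ribosomal protein genes near 0 (median 0.23).

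Higher than the rest did not mean highest in this class. Of the 471 higher genes, 195 (41.4%) had their highest level in resting basal cells when set beside 4 other classes, 226 (48.0%) in Dcn-high basal cells, 48 (10.2%) in cycling cells and 2 (0.425%) in intermediate cells. The same shares over all genes compared are not given, so these shares are not read as a trait of the higher genes. Dcn-high sums held 319229 and 273551 UMIs against 9008641 and 7813454 in members, so their counting error is larger and can raise their number of peaks. None of the 471 peaked in the cells with Krt14 under 40 and Krt4 plus Krt13 of 80 or more. Those cells were 6975 of the 12602 others, so a gene picked as higher than in the others could hardly peak there.

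Intermediate cells differ from the members by the Krt4 plus Krt13 limit alone. Even so, their summed levels of most stress keratins and cornified genes were above those of the members, while Krt5 was alike. Of 5147 genes compared, 241 were higher in resting basal cells (4.68%) and 252 lower (4.9%). Krt5 stood at 3732 and 3552 CPM in resting basal cells and 3499.9 and 3358 CPM in intermediate cells (log2 0.09). Scaling by the median of ratios gave 179 higher and 308 lower.

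The surface and secreted genes of the members separated these classes. Dlk2 stood at 96.2 and 96.6 CPM in resting basal cells against 22.3 and 21.8 CPM in intermediate cells (log2 2.13, interval 1.83 to 2.45). Pappa stood at 194 and 190 CPM in members against 51.9 and 36.8 CPM in intermediate cells (log2 2.13) and Hpgd at 633 and 655 CPM in members against 180 and 179 CPM in intermediate cells (log2 1.84). Smoc2, a secreted matricellular protein, the imprinted noncoding RNA H19 and Igfbp7 completed the 6 genes with the largest excess, at log2 1.73, 1.44 and 1.45. Of 11 hemidesmosome and matrix adhesion genes, 8 were higher (median log2 0.75), the calls of Itga6 and Col17a1 being lost under 1 and 3 of 13 alternative settings, and 5 of 12 TGF-β and BMP genes and 4 of 10 Wnt genes were higher with 0 lower in either list. With stricter limits on every criterion the hemidesmosome median was 0.53, under the 1.5-fold line.

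Krt6b, a keratin induced by stress and wounding, stood at 68.5 and 115 CPM in resting basal cells and 1346 and 785 CPM in intermediate cells (log2 -3.53), and Krt6a at 398 and 395 CPM in members against 2918 and 2597 CPM in intermediate cells (log2 -2.79). Krt6a and Krt6b are close copies, and how reads were divided between them is not given. Of 7 suprabasal and stress keratins, 5 were lower in class sums. In thinned cells, Krt6a had a UMI in 56.9 and 57.5% of intermediate cells against 30.6 and 27.1% of members. Krt16 had one in 7.66 and 9.29% of intermediate cells against 3.02 and 2.91% of members. Krt17 was nearly level, at 8.13 and 8.57% of intermediate cells against 7.26 and 8.06% of members. The sums of Krt16 and Krt17 thus describe few cells of either class. Also lower were 16 of 18 cornified genes (median log2 -2.01), 7 of 9 desmosome genes and 9 of 11 genes of cholesterol synthesis and uptake (median log2 -1.90). Spink5, the serine protease inhibitor LEKTI, had a log2 ratio of -3.31, the cornified envelope genes Sprr1a and Cnfn of -2.96 and -3.02, and Ly6g6c of -3.91. Cdkn1a stood at 44.7 and 48.9 CPM in resting basal cells against 212 and 237 CPM in intermediate cells (log2 -2.26). By contrast 1 of 6 compared G2/M genes differed, the choice having kept dividing cells out of both classes.

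Against cycling cells that were as low in mucosal keratins, the adhesion and transcription factor genes were close. The largest differences lay in cycle genes, whose programmes the choice had used. Genes outside the cycle, Gdpd2, Dlk2 and Gpnmb among them, differed as well. Of 5433 genes compared, 172 were higher in resting basal cells (3.17%) and 530 lower (9.76%). Itgb4 stood at 138 and 118 CPM in resting basal cells and 122 and 123 CPM in cycling cells (log2 0.05), and Trp63 at 495 and 505 CPM in members and 465 and 493 CPM in cycling cells (log2 0.06). Of 12 hemidesmosome and matrix adhesion genes, 2 were higher, and of 12 basal transcription factors, 0 differed by the size rule. In the Wnt list 0 of 10 compared genes differed either.

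The 6 genes with the largest excess were Gdpd2, Dlk2, Gpnmb, Ahnak2, Defb1 and Ccnd2. Gdpd2 stood at 94.2 and 103 CPM in resting basal cells against 24.3 and 23.0 CPM in cycling cells (log2 2.06, interval 1.89 to 2.22), and Dlk2 at 96.2 and 96.6 CPM in members against 30.3 and 27.8 CPM in cycling cells (log2 1.73). Ahnak2, a large scaffold protein, stood at 138 and 127 CPM in members against 48.0 and 39.9 CPM in cycling cells. Ccnd2 stood at 932 and 907 CPM in members against 321 and 330 CPM in cycling cells and Ccnd1 at 137 and 133 CPM in members against 76.8 and 76.3 CPM in cycling cells (log2 0.82). Ccnd3, the remaining D-type cyclin gene, stood at 27.5 and 32.0 CPM in resting basal cells against 36.4 and 38.1 CPM in cycling cells and did not reach the size rule.

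All 23 compared G2/M genes outside the choice were lower (median log2 -4.88), as were 17 of 19 S phase genes (median log2 -1.74) and 5 of 7 histone genes. Kif11, the spindle kinesin, stood at 0.78 and 1.54 CPM in resting basal cells against 133 and 143 CPM in cycling cells (log2 -6.98, interval -7.67 to -6.29). Esco2, Casc5, Pbk, Aurkb and Spc25 had log2 ratios of -6.14 to -5.51. These genes act in the programmes used for the choice, so their ratios describe the limits set.

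Genes of CDK inhibitors were level or lower in the members than in cycling cells. Cdkn2d, which encodes p19 of the INK4 family, stood at 20.5 and 22.1 CPM in resting basal cells against 252 and 267 CPM in cycling cells (log2 -3.61), and Cdkn2c, which encodes p18 of that family, at 34.7 and 37.9 CPM in members against 205 and 224 CPM in cycling cells (log2 -2.56). Cdkn1b was at 51.2 and 47.5 CPM in members against 79.7 and 89.5 CPM in cycling cells (log2 -0.78), and Cdkn1a at 44.7 and 48.9 CPM in members against 45.5 and 43.8 CPM in cycling cells. None of the 4 was higher in resting basal cells than in cycling cells by the size rule. Against Dcn-high basal cells Cdkn1a was higher in members, a call lost under 2 of 13 alternative settings.

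Dcn-high basal cells met every criterion but the Dcn limit, and set beside them the members had less of several secreted and matrix genes and more of others. That class held 53 and 52 cells, so 3 UMIs of a gene correspond to 9.40 CPM in library 1. Of 5220 genes compared, 153 were higher in resting basal cells (2.93%) and 134 lower (2.57%), and none of 12 hemidesmosome and matrix adhesion genes differed. In the Wnt list 0 of 11 compared genes were higher, and Sfrp1 was lower, a call lost under 4 of 13 alternative settings. Of 7 compared secreted matrix genes, 3 were lower in members (Serpine2, Fbln1 and Tnc) and Efemp1 was higher (log2 1.27). In the growth factor list Igfbp3 was higher (log2 1.29) and Igfbp5 and Igfbp6 were lower.

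Egfl6, a secreted EGF-repeat protein, stood at 36.7 and 34.7 CPM in resting basal cells against 373 and 322 CPM in Dcn-high cells (log2 -3.28, interval -3.52 to -3.05). Serpine2, a secreted inhibitor of thrombin-like proteases, stood at 9.32 and 9.21 CPM in members against 78.3 and 117 CPM in Dcn-high cells, and the factor Tfap2b at 96.8 and 95.3 CPM in members against 388 and 420 CPM in Dcn-high cells (log2 -2.07). Among keratins, Krt17 was at 141 and 204 CPM in members against 761 and 790 CPM in Dcn-high cells (log2 -2.19), Krt24 at 52.1 and 43.6 CPM in members against 241 and 161 CPM in Dcn-high cells, and Krt15 at 2092 and 2409 CPM in members against 6885 and 6478 CPM in Dcn-high cells (log2 -1.57). Lgals1 (galectin-1) had a log2 ratio of -1.81.

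Several genes that led the comparison with all other cells were as high or higher in Dcn-high cells. Pappa stood at 194 and 190 CPM in resting basal cells against 442 and 512 CPM in Dcn-high cells (log2 -1.31), Hpgd at 633 and 655 CPM in members against 1203 and 1104 CPM in Dcn-high cells, and Cdh13 at 80.5 and 79.4 CPM in members against 172 and 154 CPM in Dcn-high cells. Ccnd2 was nearly equal, at 932 and 907 CPM in members and 968 and 1009 CPM in Dcn-high cells (log2 -0.10). Dlk2 stood at 96.2 and 96.6 CPM in members against 75.2 and 54.8 CPM in Dcn-high cells and missed the size rule (log2 0.59, interval 0.09 to 1.05).

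On the other side stood Ly6d, a GPI-anchored surface protein, at 945 and 1072 CPM in resting basal cells against 179 and 216 CPM in Dcn-high cells (log2 2.36), and Krt6a at 398 and 395 CPM in members against 97.1 and 80.4 CPM in Dcn-high cells. Chil4, a chitinase-like secreted protein, stood at 1944 and 1291 CPM in members against 276 and 281 CPM in Dcn-high cells. Krt16 stood at 132 and 194 CPM in members against 9.40 and 7.31 CPM in Dcn-high cells, the Dcn-high value resting on 5 UMIs in both libraries together (log2 3.98, interval 3.03 to 5.87). A few members carried these sums. The 14 and 15 members richest in each gene, in libraries 1 and 2, held 88.1 and 91.3% of the members' Krt16 UMIs, 35.6 and 36.1% of those of Krt6a and 68.2 and 55.2% of those of Chil4. At 3000 UMIs, Krt16 had a UMI in 3.02 and 2.91% of members against 3.77 and 1.92% of Dcn-high cells, Krt6a in 30.6 and 27.1% of members against 28.3 and 17.3% of Dcn-high cells, and Chil4 in 51.7 and 62.2% of members against 58.5 and 57.7% of Dcn-high cells. Gm94 and Paqr5 were 2.13 and 1.40 higher on the log2 scale. Chil4 has the close copy Chil3, and the division of reads between them is not given.

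**Figure D4:**
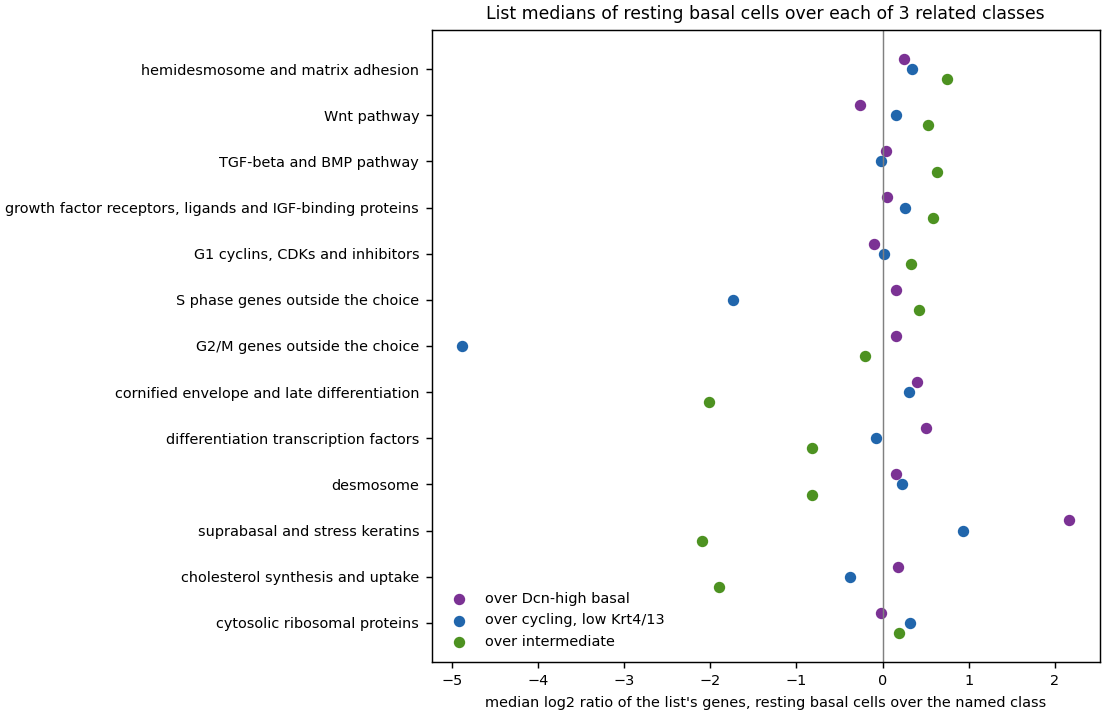
Median log2 ratio of resting basal cells over Dcn-high basal cells, over cycling cells and over intermediate cells, for 13 gene lists, with 1 colour per comparison and a grey line at 0. The G2/M median is -4.88 over cycling cells and -0.21 over intermediate cells, the cornified median is -2.01 over intermediate cells and 0.30 over cycling cells, and the hemidesmosome and matrix adhesion median is 0.25 over Dcn-high cells.

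Across these comparisons, 4 of 4795 genes compared in all 3 were higher in resting basal cells than in each related class, and 0 were lower than in each. They were Gpnmb, Defb1, Siah1a and Slc12a4. Gpnmb exceeded intermediate, cycling and Dcn-high cells by 1.34, 1.68 and 1.29 on the log2 scale, and Defb1 by 1.14, 1.57 and 0.88. Slc12a4, a potassium-chloride cotransporter, exceeded them by 1.61, 0.72 and 0.75, and Siah1a, a ubiquitin ligase with close copies in the genome, by 0.74, 0.69 and 0.70. Gpnmb held this place under all 13 alternative settings, Defb1 under every one but thinning to 3000 UMIs, Slc12a4 under all but 3 and Siah1a under all but 6. Melanocytes also express Gpnmb, and their 5 markers summed to 0.111 and 0.64 CPM in members against 0.366 and 0.125 CPM in the other cells. Mlana, Tyrp1 and Tyr were at 0 UMIs in members of both libraries, and Pmel and Dct averaged 0.32 and 0.056 CPM there.

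Markers of other cell types were read as whole lists. The summed immune list stood at 12.99 and 26.1 CPM in resting basal cells against 174 and 372 CPM in the other cells, with Cd3e at 0. Of the fibroblast list, summing to 74.3 and 84.6 CPM in members against 97.8 and 96.9 CPM in the other cells, nearly all was Dcn, a gene of the choice, while Col1a2, Col3a1, Lum, Postn and Mgp were at 0. The endothelial list summed to 1.67 and 0.512 CPM in members against 1.04 and 0.91 CPM in the other cells, all of it Pecam1 in members, where Cdh5, Kdr, Cldn5 and Emcn were at 0. The pericyte and smooth muscle list summed to 10.9 and 10.4 CPM in members against 4.804 and 4.96 CPM in the other cells, nearly all of it Acta2, while Rgs5, Myh11 and Des were at 0. Acta2 stood at 10.8 and 10.4 CPM in members against 62.7 and 32.9 CPM in Dcn-high cells. The Schwann cell list, with Sox10 at 0 in members, was led by Mbp, at a mean of 20.6 CPM in members against 18.2 CPM in the other cells, and the hair and sebaceous list summed to 11.5 and 16.8 CPM in members against 101 and 116 CPM in the other cells, led by Cst6. The glandular list summed to 81.6 and 85.2 CPM in members against 69.3 and 54.3 CPM in the other cells, carried by Wfdc2 at 76.6 and 79.99 CPM in members against 38.5 and 35.8 CPM in the other cells. The part of these transcripts in the results was not tested.

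Among the 761 genes whose spread was compared, few varied among the members far beyond counting error. Genes with few UMIs per cell, Krt16 and Krt17 among them, were not in this comparison. At low counts the ratio used here also stays near 1 in genes that vary. How many genes vary among the members was therefore not determined. At 3000 UMIs per cell, the variance divided by the mean had a median of 1.08 over 761 genes in each library, where counting alone gives 1, and 38 genes exceeded 2. Chil4 stood apart at 197 and 116 in libraries 1 and 2. Krt6a followed at 13.3 and 11.8, then Ly6d at 9.71 and 8.87 and the fatty-acid-binding protein gene Fabp5 at 9.61 and 8.96. Malat1, Gm42418, Krt15, Actb, Crip1 and Txn1 completed the 10 highest outside the choice, at 4.83 to 8.90.

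**Figure D5:**
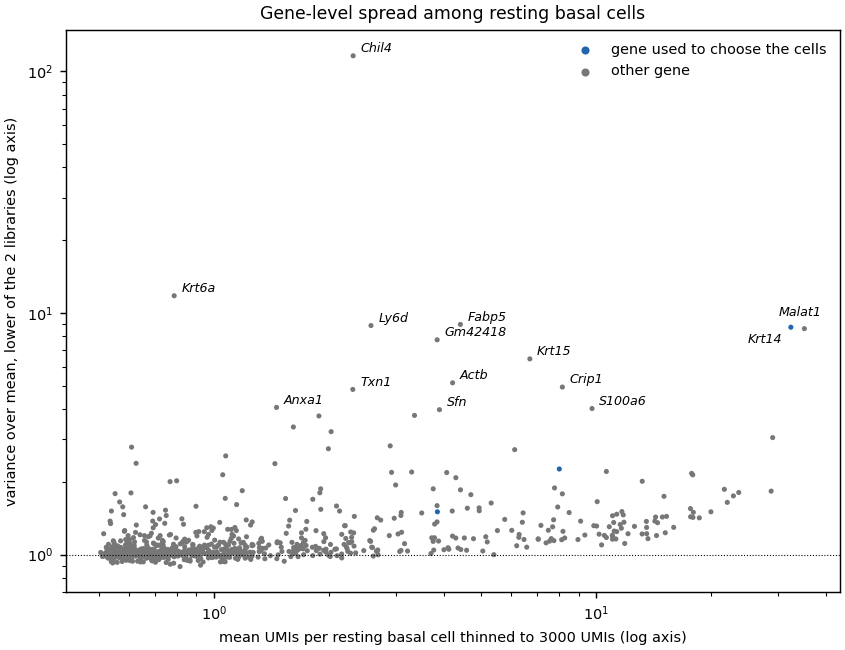
Variance divided by mean UMIs among resting basal members thinned to 3000 UMIs (y axis, lower of the 2 libraries) against mean UMIs per cell (x axis), both axes log, with 1 point per gene and blue for genes used in the choice. Most genes lie near the median of 1.08, Chil4 reaches 116, and Krt6a, Fabp5 and Ly6d lie between 8.87 and 11.8.

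These spreads came from few cells. The 1% of members richest in Chil4 (14 and 15 cells) held 68.2 and 55.2% of all its UMIs, up to 494 and 401 of the 3000 UMIs in a single cell, where the median member had 1. The richest 1% held 88.1 and 91.3% of the UMIs of Krt16, 67.5 and 65.1% of Krt17 and 35.6 and 36.1% of Krt6a. For Krt5 the richest 1% held 2.85 and 2.72%. Class sums of Chil4, Krt16 and Krt17 therefore describe a small part of the members, whereas Krt5 is spread evenly.

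The 42 and 43 members with a Krt16 UMI were set beside the 1350 and 1433 without, a division made after these values were seen, with each cell thinned to 3000 UMIs. Krt17 stood at 1468 and 2031 CPM in members with Krt16 against 49.4 and 43.0 CPM in members without, Krt6a at 3135 and 3341 CPM in members with Krt16 against 195 and 148 CPM in members without, and Krt6b at 952 and 1326 CPM in members with Krt16 against 9.63 and 10.5 CPM in members without. Chil4 stood at 15722 and 11442 CPM in members with Krt16 against 351 and 406 CPM in members without, and Txn1, thioredoxin, at 3151 and 3000 CPM in members with Krt16 against 700 and 698 CPM in members without. Leading genes of the class were mixed in the same cells. Dlk2, on few UMIs, was at 47.6 and 46.5 CPM in members with Krt16 against 98.8 and 97.7 CPM in members without and Pappa at 79.4 and 62.0 CPM in members with Krt16 against 214 and 199 CPM in members without, whereas Krt5 was at 3730.2 and 3449.6 CPM in members with Krt16 against 3626 and 3465 CPM in members without. Gpnmb was at 190.5 and 62.0 CPM in members with Krt16 against 189.9 and 192 CPM in members without, level in library 1 and lower in library 2, and Ccnd2 and Itgb4 differed by less than 1.5-fold in both libraries. Krt14 was higher in them, at 15683 and 18279 CPM in members with Krt16 against 10337 and 10839.7 CPM in members without. Across members, log2(1 + UMI) of Krt16 and Krt17 correlated at r = 0.57 and 0.60 (1392 and 1476 cells of 2 libraries), and that of Krt14 and Krt5 at 0.39 and 0.41, as a description over cells that share library and depth.

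Within the class, members in different ranges of Krt4 plus Krt13 differed in few genes. Members at 20 to under 80 UMIs per 10000 (1276 and 1375 cells) were set beside those at 5 to under 20 (115 and 101 cells). Of 5202 genes compared, 19 were higher (0.365%) and 39 lower (0.75%). The largest excess was in Tgm3, a transglutaminase of the cornified envelope, at 79.8 and 71.9 CPM in the upper bin against 32.6 and 32.8 CPM in the lower. Krt17 stood at 107 and 159 CPM in the upper bin against 526 and 793 CPM in the lower bin, the alarmin cytokine Il33 at 30.4 and 27.7 CPM in the upper bin against 95.1 and 65.6 CPM in the lower bin, and the chemokine Cxcl14 at 89.2 and 81.2 CPM in the upper bin against 220 and 171 CPM in the lower bin. The richest 14 and 15 members held 67.5 and 65.1% of the Krt17 UMIs, so a few cells can carry its difference, and their part was not tested.

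A more even division, chosen after the data were seen, set members at 50 to under 80 (314 and 364 cells) beside those under 30 (448 and 421 cells). Of 5226 genes compared, 20 were higher (0.383%) and 24 lower (0.459%), and for 40 of these 44 the members at 30 to under 50 lay between. Picking genes on a gap between the end bins favours that position, and its share over all genes compared is not given, so nothing is read from it. Some leading genes of the class were among the 24 lower genes. Dlk2 stood at 69.0 and 73.2 CPM in the upper bin against 116 and 115 CPM in the lower (log2 -0.70), Pappa at 114 and 130 CPM in the upper bin against 264 and 282 CPM in the lower bin (log2 -1.16) and Hpgd at 429 and 477 CPM in the upper bin against 724 and 854 CPM in the lower bin (log2 -0.80). Tgm3 was again higher, at 116 and 108 CPM in the upper bin against 44.4 and 43.9 CPM in the lower bin. Krt5, Krt15, Gpnmb and Ccnd2 did not reach the size rule, at log2 0.06, 0.17, -0.16 and -0.28, so the markers did not move together inside the class.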

How the data were processed

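The deposited values are raw UMI counts by gene and barcode. The submitters' processing notes name mm10 and Cell Ranger, whose version the sources used here do not give. Library 1 held 7215 barcodes and 67962712 UMIs, library 2 held 9076 and 73935792. A minimum of 500 genes and a maximum of 10% mitochondrial UMIs removed 308 and 513 barcodes, every one on the mitochondrial limit. No doublet caller was run. Every sample belongs to 1 group.

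For each library, a class's UMIs were added up and scaled to CPM. Genes averaging at least 20 CPM over both classes were compared; counts under 3 were set to 3, and a gene at or under 3 UMIs in both classes got no ratio. Cells were thinned at random to 3000 UMIs for shares and spread. Shares carry exact Clopper-Pearson intervals and ratios exact conditional binomial intervals (95%), for counting error only. With 1 independent sample no p-value was computed.

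Named genes were the 12 highest and 12 lowest by the smaller library ratio among genes averaging 50 CPM against all other cells (6 and 6 against each related class and bin), up to 4 examples per list, the 10 with the largest variance over mean and the 3 most abundant markers of each other cell type; others are named to identify the genes behind a count. The members, gene lists and rules were chosen with earlier results of these data known. The planned lowest Krt4 plus Krt13 bin, 0 to under 5, held 1 cell, so the next bins were compared and further bins added after the data were seen. Gene coordinates came from GENCODE M21 on GRCm38 (27645 of 27998 genes, 98.7%, matched by identifier) and promoters from RefSeq. Alternatives covered scaling, the filter on low genes, equal weight per cell, thinning, mitochondrial filter, limits of the choice, and leaving out immune and simple-keratin cells, the 2% of cells with most UMIs, shared barcodes and each library. The comparison was tested on simulated data. Some genes of the lists are counted but not named or reported here. Calculations used pandas 2.3.3, scipy 1.17.1 and numpy 2.4.6 in Python 3.11.15, and plots matplotlib 3.10.9.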

Additional observations from a re-analysis of the deposited data

How the results depend on the processing

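The number of calls followed the filter on low genes. With a minimum of 5 CPM, 1029 genes were higher and 718 lower than in all other cells, 603 and 440 against intermediate, 398 and 926 against cycling and 276 and 866 against Dcn-high cells. Without a filter these were 2927 and 1257, 905 and 994, 776 and 1299, and 276 and 3615, the last reflecting the 3-UMI floor in a class of about 50 cells a library. Under both settings 7 genes were higher than in each related class. Thinning to 3000 UMIs gave 303 higher than in all other cells, 216 lower than in Dcn-high cells and 2 higher than in each related class. In that setting the classes were chosen again on the thinned counts, with 17.3% of kept cells as members against 18.7%. The 3-UMI floor also stood at a higher CPM in the smaller sums, so depth, membership and floor changed together. Stricter limits gave 131 higher and 159 lower than in intermediate cells and a share of 13.3% of kept cells, and looser limits 22.7%. With either library alone, calls higher numbered 521 to 576 (others), 381 to 394 (intermediate), 240 to 259 (cycling) and 521 to 541 (Dcn-high), calls lower 447 to 450, 332 to 341, 598 to 626 and 504 to 560, genes above each related class 8 to 18, and the share was 17.2 to 20.2%; a call then needs 1 library instead of 2. Median-of-ratios scaling moved the median of all genes against all other cells to -0.07, against 0.08, and the share of calls that were higher to 37.2%, against 53.4%, and against intermediate cells to 36.8%, against 48.9%. Of the named calls, 27 of 157 against all other cells fell under 1.5-fold in at least 1 of 13 alternatives (Ccnd1, Krt16, Krt6b, Igfbp2, Igfbp5, Egfr, Tcf7l2, Tgfb1, Plec, Dsp, Jup and Perp among them), as did 31 of 103 against intermediate (Itga6, Col17a1 and Krt15 among them), 16 of 92 against cycling and 20 of 44 against Dcn-high cells (Defb1 and Krt6a under thinning); 1 reversed, Cd74, at log2 0.23 without immune and simple-keratin cells. Except for the counts and genes above, the cause of these moves was not tested. No paired analysis was possible because there is 1 group, whose libraries are technical splits of 1 suspension. Depth limits shares of low genes such as Dlk2, and the 105 Dcn-high and 64 immune cells bound any value in them.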

Other observations

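Detoxification genes that reached the size rule were mostly lower in resting basal cells than in all other kept cells. Of 22 compared genes of glutathione, redox and metallothionein, 6 were lower and 1 higher (median log2 -0.36). Gpx2, a glutathione peroxidase of epithelia, stood at 232 and 261 CPM in resting basal cells against 536 and 578 CPM in the others (log2 -1.18), and Mgst1, a microsomal glutathione transferase, at 287 and 334 CPM in members against 614 and 713 CPM in other cells (log2 -1.09). Nqo1, a quinone reductase, stood at 133 and 150 CPM in members against 270 and 308 CPM in other cells. Gstm2, another glutathione transferase, was the exception, at 233 and 253 CPM in members against 128 and 139 CPM in other cells (log2 0.86).

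Tight and adherens junction genes were mixed, with 2 of 8 compared genes higher, 2 lower and 4 short of the size rule. Cdh3 (P-cadherin) stood at 32.1 and 25.6 CPM in resting basal cells against 17.9 and 15.7 CPM in the others, and the claudin gene Cldn8 at 45.4 and 55.5 CPM in members against 26.3 and 29.8 CPM in other cells, whereas Cdh1 (E-cadherin) stood at 45.2 and 42.7 CPM in members against 74.2 and 70.2 CPM in other cells. Pvrl4, the gene of the adherens junction protein nectin-4, was at 14.5 and 13.3 CPM in members against 95.2 and 96.8 CPM in other cells (log2 -2.79). Sox2, a factor of oral epithelial identity, was level at 73.0 and 65.1 CPM in members and 75.9 and 73.9 CPM in other cells. Ifitm3, a membrane protein that restricts virus entry and is not among the genes of the choice, stood at 1244 and 1312 CPM in members against 589 and 586 CPM in other cells (log2 1.12), while Ifi27l2a and Bst2 were lower. The calls of Cldn8, Cdh3, Cdh1 and Ifi27l2a are close to the 1.5-fold line, and those of Cldn8, Cdh3 and Cdh1 were lost under 2, 3 and 1 of the 13 alternatives. These genes were chosen for description after their values were seen.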
